A study of Mus musculus with 40 samples.

Results

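Giving mice their food as a single daily meal, without the 30% restriction applied elsewhere in the series, was set against free access to the same food, and the effect was averaged over 2 diets. The comparison took every liver labelled meal-fed (MF, 10 libraries) or ad libitum (AL, 11 libraries), which is 21 of the 40 in the series. The other 19 came from calorically restricted mice (CR). All were male mice of the inbred C57BL/6J strain, obtained at 6 weeks of age and put on their diet at 5 months.

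By group there were 6 MF-NIA, 5 AL-NIA, 4 MF-WIS and 6 AL-WIS libraries. NIA is an open-source chow in which sucrose supplied 7.6% of the energy and fat 17.7%. WIS is a purified diet in which sucrose supplied 46% and fat 24.4%. MF mice received 1 portion a day at 3 pm, give or take 1 hour, from the hopper that also held the food of AL mice. Their portion was fixed at 14 months of age. Per the labels, MF-NIA, MF-WIS and AL-WIS mice took in equal calories and AL-NIA mice took in the most. On the WIS diet the comparison therefore changes the timing of intake at a matched amount, whereas on the NIA diet timing and a lower intake cannot be told apart. For tissue collection, the age, the hour and the time since the last meal were not given in the labels used here.

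In the liver, feeding and fasting alternate between 2 programmes. After a meal insulin favours glycogen and lipid synthesis. As the meal wears off, glucagon, the kinase AMPK and the nuclear receptor PPAR-alpha favour fatty acid oxidation, ketone bodies and gluconeogenesis. Meal time also sets the phase of the liver clock, in which the activators CLOCK and BMAL1 (gene Arntl) switch on their own repressors (Per, Cry and Nr1d genes) and output genes such as Dbp. Synthesis of secreted proteins after food loads the endoplasmic reticulum (ER), and its unfolded protein response raises ER chaperones, partly through a promoter motif called the ER stress response element (ERSE).

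The values are scores standardised within each array and rescaled to log2 units, so that 0 is the average probe of that array and 1 unit is a doubling. A difference is MF minus AL with diet as a covariate, tested with limma over 7958 genes and adjusted after Benjamini-Hochberg, with a threshold of 0.05. Levels of different genes are not compared as amounts of RNA, since each rests on its own probe. Without background subtraction, differences of dim genes are understated.

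The promoters of 3 ER genes that carry the ERSE are shown because 2 of them, Creld2 and Hsp90b1, fell in MF livers, while the difference of Hspa5 did not pass. Each is given by the 250 bases before the start site (RefSeq, build GRCm38.p6), read 5′ to 3′ on the gene's strand, with the ERSE in capitals.
Creld2, chr15:88819396-88819645, plus strand: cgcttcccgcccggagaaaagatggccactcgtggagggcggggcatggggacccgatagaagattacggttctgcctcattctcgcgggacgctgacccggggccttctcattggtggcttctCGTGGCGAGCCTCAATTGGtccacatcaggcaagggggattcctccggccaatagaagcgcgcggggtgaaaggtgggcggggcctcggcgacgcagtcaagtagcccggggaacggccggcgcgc
Hsp90b1, chr10:86705445-86705694, minus strand: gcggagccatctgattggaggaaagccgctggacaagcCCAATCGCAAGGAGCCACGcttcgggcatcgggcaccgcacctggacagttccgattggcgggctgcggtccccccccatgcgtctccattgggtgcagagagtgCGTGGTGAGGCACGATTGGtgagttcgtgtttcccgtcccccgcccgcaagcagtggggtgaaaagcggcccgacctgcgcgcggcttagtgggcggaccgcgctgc
Hspa5, chr2:34771840-34772089, plus strand: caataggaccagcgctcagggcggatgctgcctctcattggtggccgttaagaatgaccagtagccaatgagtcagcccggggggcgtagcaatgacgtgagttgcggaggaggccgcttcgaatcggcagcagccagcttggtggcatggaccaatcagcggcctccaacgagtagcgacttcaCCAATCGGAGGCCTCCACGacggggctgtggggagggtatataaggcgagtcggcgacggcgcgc

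The motif searched was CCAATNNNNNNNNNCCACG on either strand. Creld2 carries it once, on the opposite strand, Hsp90b1 carries it once on each strand, and Hspa5 carries it once on the gene's own strand.

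Of the 21 libraries, 2 stood apart. The first principal component over them, 41.1% of the variance, placed the library labelled AL-WIS replicate 1 at -82.5. The second, 12.8%, placed MF-WIS replicate 4 at -49.1. In AL-WIS replicate 1, the 16 measured macrophage and Kupffer cell markers averaged a level of 5.14, against 0.90 to 1.87 in MF-WIS libraries and 1.25 to 2.54 in the other AL-WIS libraries. Its 12 hepatocyte markers averaged 5.03, against 5.68 to 6.37 in MF-WIS libraries and 5.79 to 6.30 in the other AL-WIS libraries. In the other 20 libraries hepatocyte markers averaged 5.42 to 6.40. In whole liver, fewer cells of a type and less RNA per cell cannot be told apart. The labels give no batch, and nothing in them says which mice shared a cage.

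Meal feeding was accompanied by modest differences across the liver transcriptome. Of 7958 genes, 127 (1.60%) passed limma's adjusted p of 0.05. In MF livers 86 (1.08%) rose and 41 (0.515%) fell. Only 2 rises and no fall exceeded 2-fold, and 16 rises and 3 falls exceeded 1.5-fold. The median difference was 0.44 for the genes that rose and -0.41 for those that fell. Before adjustment, 1338 genes (16.8%) had p under 0.05. The split of rises and falls depended on the scaling of the arrays: 31 rose and 34 fell after quantile normalization, 29 and 363 after median scaling, and 8 and 13 on ranks. Here and below, median scaling means that each array was centred on its median and its spread was scaled by its median absolute deviation.

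Without AL-WIS replicate 1, 271 genes (3.41%) passed, 166 (2.09%) higher and 105 (1.32%) lower in MF livers, among them all 127. The number was most exposed to AL-NIA replicate 5, without which 12 genes passed. These 12 also passed after removal of each of the other 20 libraries in turn. In MF livers Heca, Cnot7, Tbc1d15, Adss, Pfkfb2, Ppfibp1, Qpct, Herpud2 and Uri1 rose, and Pcyt1a, Rps9 and Naca fell, Naca by 1 of its 3 probes only. This set was chosen after its values were seen.

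The largest rise was in Angptl4, a secreted inhibitor of lipoprotein lipase and a classic PPAR target. Its level in MF-NIA livers ran from 2.82 to 3.88 with a median of 3.47, against 1.27, 2.55, 1.86, 0.04 and 1.13 in AL-NIA livers. In MF-WIS livers it was 3.44, 3.26, 4.29 and 1.99, against 1.21 to 3.61 with a median of 2.56 in AL-WIS livers. Every MF-NIA library lay above every AL-NIA library, whereas the groups overlapped on the WIS diet. The pooled difference was 1.44 (SE 0.35, limma adjusted p = 0.0409), or 2.71-fold, with 2.03 on NIA and 0.76 on WIS. The call was lost on removal of 15 of the 21 libraries taken singly.

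Gpcpd1, which cleaves glycerophosphocholine and so releases choline, was the other rise above 2-fold. MF-NIA livers ran from 1.52 to 3.05 with a median of 2.45, against 2.17, 0.86, 1.36, 0.20 and 0.35 in AL-NIA livers. MF-WIS livers stood at 2.25, 1.42, 2.19 and 1.90, against 0.66 to 1.83 with a median of 1.12 in AL-WIS livers. Of the 10 MF libraries, 6 exceeded every AL library. The difference was 1.11 (SE 0.24, adjusted p = 0.0235), and a second probe gave 0.74 (adjusted p = 0.0111 over all 10659 probes).

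The converse was seen in Pcyt1a, the enzyme that sets the pace of phosphatidylcholine synthesis from choline. Levels in MF-NIA livers ran from 1.55 to 2.63 with a median of 2.24, against 3.26, 2.94, 3.13, 2.63 and 3.08 in AL-NIA livers. In MF-WIS livers they were 1.62, 1.62, 1.59 and 1.69, against 1.59 to 2.66 with a median of 2.22 in AL-WIS livers. The lowest AL-WIS value was that of replicate 1, and the other 5 AL-WIS libraries lay above all 4 MF-WIS libraries. The difference was -0.73 (SE 0.14, adjusted p = 0.0174).

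Among the 15 measured genes of phosphatidylcholine synthesis and turnover, Gpcpd1 rose, Pcyt1a fell and 13 did not pass, with a list median of 0.11 against 0.02 over all genes. Chka, the kinase that phosphorylates choline ahead of Pcyt1a, differed by -0.63 (adjusted p = 0.134). Pla2g12a, a secreted phospholipase A, differed by 0.51 (adjusted p = 0.0894). The list median turned to -0.05 without AL-WIS replicate 1. It turned to -0.36 under median scaling, which moved the median of all genes to -0.13.

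**Figure D1:**
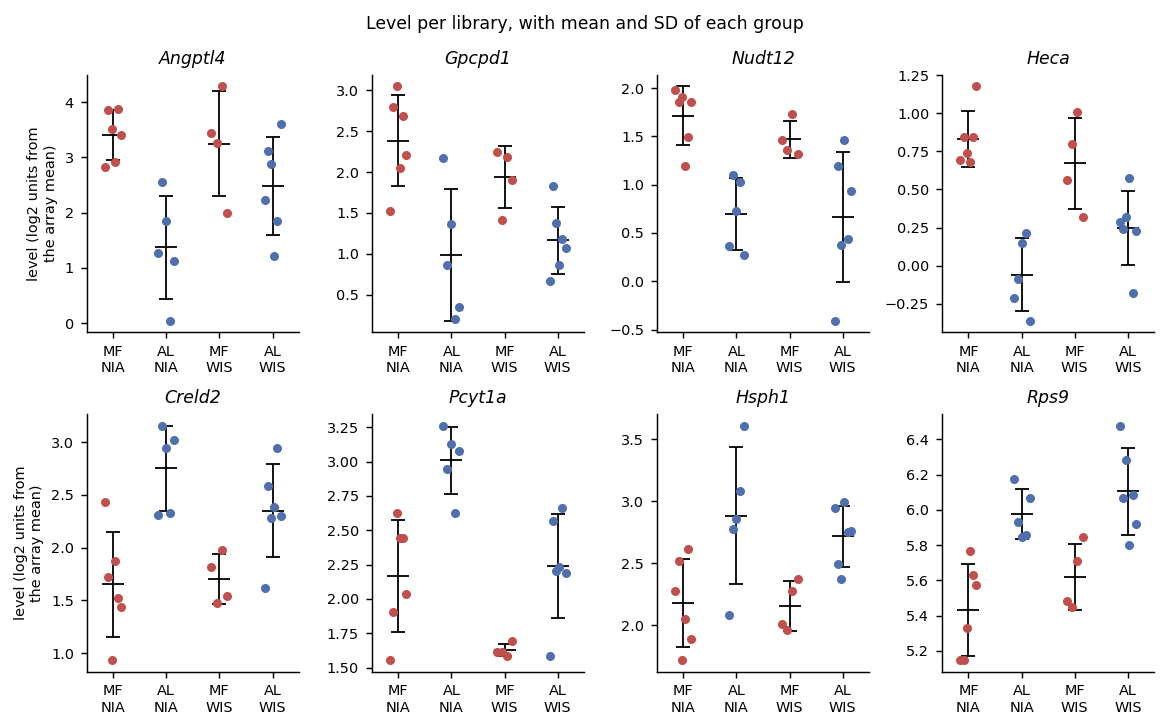
Level per library of 8 genes in the 4 groups (log2 units from the array mean, each point 1 library, MF red and AL blue), with the mean and SD of each group as a bar. In Rps9 all 6 MF-NIA libraries sit below all 5 AL-NIA libraries, and in Heca all 6 sit above them.

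Heca, the mouse counterpart of the Drosophila headcase gene, had one of the smallest adjusted p. MF-NIA livers ran from 0.68 to 1.18 with a median of 0.79, against -0.21, -0.09, 0.15, 0.21 and -0.36 in AL-NIA livers. MF-WIS livers stood at 0.56, 0.80, 1.01 and 0.32, against -0.18 to 0.57 with a median of 0.26 in AL-WIS livers. It rose by 0.67 (SE 0.11, adjusted p = 0.0174), and 8 of the 10 MF libraries exceeded every AL library.

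Nudt12, a peroxisomal enzyme that hydrolyses NADH and NAD caps of RNA, rose by 0.92 (SE 0.18, adjusted p = 0.0203). Its levels in the 10 MF livers ran from 1.19 to 1.98 with a median of 1.62, against -0.41 to 1.47 with a median of 0.72 in the 11 AL livers. The NIA groups did not overlap. Fbxo21, the substrate-recognition part of an SCF ubiquitin ligase, rose by 0.89 (adjusted p = 0.0298), with levels of 2.39 to 3.47 in MF livers and 1.21 to 2.88 in AL livers. For Fbxo21, 8 of 10 MF libraries lay above the whole AL range.

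Gabarapl1, an ATG8-family protein of autophagosomes, rose by 0.76 (adjusted p = 0.0432). Its MF levels ran from 3.26 to 4.44 with a median of 3.82, and its AL levels from 2.28 to 4.32 with a median of 3.05. Nbr1, a cargo receptor of autophagy, rose by 0.44 (adjusted p = 0.0298). In a list of 26 autophagy genes put together after these values were seen, the other 24 did not pass, and the median was 0.09, or -0.10 under median scaling.

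Tob1, which recruits the CCR4-NOT complex to shorten mRNA tails, rose by 0.71 (adjusted p = 0.0203). MF levels ran from 1.69 to 2.87 with a median of 2.22, against 0.51 to 1.92 with a median of 1.54 in AL livers, and 9 of 10 MF libraries exceeded every AL library. Its paralogue Tob2 rose by 0.53 (adjusted p = 0.0203). Cnot7, a catalytic deadenylase of the same complex, rose by 0.51 (adjusted p = 0.0174), with 0.51 on NIA and 0.50 on WIS. These were 3 of 12 genes of that machinery, again listed after the values were seen, and the list median was 0.06, or 0.01 after quantile normalization and -0.05 under median scaling.

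Ppp1cb, a catalytic subunit of protein phosphatase 1, rose by 0.70 (adjusted p = 0.0298) and a second probe gave 0.67. Lgals4, the galectin-4 gene, rose by 0.79 (adjusted p = 0.0463), with probes at 0.67 and 0.20 beside it. Yme1l1, a protease of the inner mitochondrial membrane, rose by 0.67 (adjusted p = 0.0375), and its other probes gave 0.40 and 0.32 without passing. The calls of Lgals4, Gabarapl1, Yme1l1, Ppp1cb and Fbxo21 were lost on removal of 14, 13, 12, 10 and 7 single libraries. Pfkfb2, a bifunctional enzyme that sets fructose 2,6-bisphosphate, rose by 0.50 (adjusted p = 0.0174).

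The largest fall was in Creld2, an ER-resident protein induced in ER stress. MF-NIA livers ran from 0.94 to 2.43 with a median of 1.62, against 2.31, 3.16, 2.94, 2.33 and 3.02 in AL-NIA livers. MF-WIS livers stood at 1.81, 1.48, 1.98 and 1.54, against 1.62 to 2.94 with a median of 2.34 in AL-WIS livers. The difference was -0.89 (SE 0.18, adjusted p = 0.0203), or 1.85-fold lower in MF livers, and a second probe gave the same value.

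Of 22 measured genes of the unfolded protein response, 3 fell, none rose and 19 did not pass. The list median was -0.18 and 17 of 22 lay below 0, against a median of 0.02 over all genes. Of all 7958 genes, 54.5% lay above 0. Under median scaling the list median was -0.54, which is -0.41 relative to the all-gene median of that scaling. Hepatocyte markers also lay lower in the pooled comparison: 10 of 12 lay below 0 and none passed, with a median of -0.18 (-0.40 on NIA and 0.05 on WIS). On WIS the unfolded protein response median was -0.08. The ribosomal and protein-targeting lists described further on stood there at -0.22 and -0.01. After quantile normalization the medians were -0.02 for hepatocyte markers and -0.16, -0.14 and -0.09 for those 3 lists in that order. Averaged per library, hepatocyte markers stood at 5.42 to 6.08 in MF-NIA livers, against 5.89 to 6.40 in AL-NIA livers. Their part in the falls of the 3 lists was not tested. Besides Creld2, Slc35b1 fell by 0.57 (adjusted p = 0.0203). It encodes the carrier that exchanges ATP for ADP across the ER membrane. Its level was 3.22 to 3.35 in MF-NIA livers, against 3.64 to 4.36 in AL-NIA livers. In MF-WIS livers it was 3.28, 3.28, 3.35 and 3.65, against 3.16 to 3.94 in AL-WIS livers.

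Hsp90b1, the ER chaperone GRP94, fell by 0.43 (adjusted p = 0.0235). Its 6 MF-NIA libraries lay between 4.86 and 5.04, all below the AL-NIA range of 5.18 to 5.71. Hspa5, the chaperone BiP, had levels of 1.06 to 2.16 in MF livers with a median of 1.54, against 1.52 to 3.29 with a median of 2.08 in AL livers. Its difference was -0.57 (adjusted p = 0.102), and without AL-WIS replicate 1 it passed (adjusted p = 0.0449). Without that library 5 genes of the list fell.

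The ERSE was present in 0.12% of the 32851 promoters of 300 bases in the RefSeq table. By gene, it was present in 13 (0.2%) of the 6529 tested genes with a promoter there, and in 7 of the 20 in this list. Those 7 were Creld2, Hsp90b1, Hspa5, Syvn1, Dnajc3, Pdia6 and Calr. All 7 lay below 0, with a median of -0.42, and 2 fell. Calr lay below 0 by only 0.05 (SE 0.21), and on WIS Calr (0.05) and Dnajc3 (0.06) lay above 0. Among the 13 without the ERSE, 8 lay below 0, the median was -0.11, and 1 (Slc35b1) fell. A further motif, named ERSE-II, was also searched, and 1 gene of the list, Herpud1, carried it. Herpud1 is counted among the 13 and lay above 0, by 0.19 (SE 0.16, adjusted p = 0.59). Of the 6 tested genes outside the list that carry the ERSE, none passed. The counts are a description, and a list gathered from genes of this response does not test either motif.

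**Figure D2:**
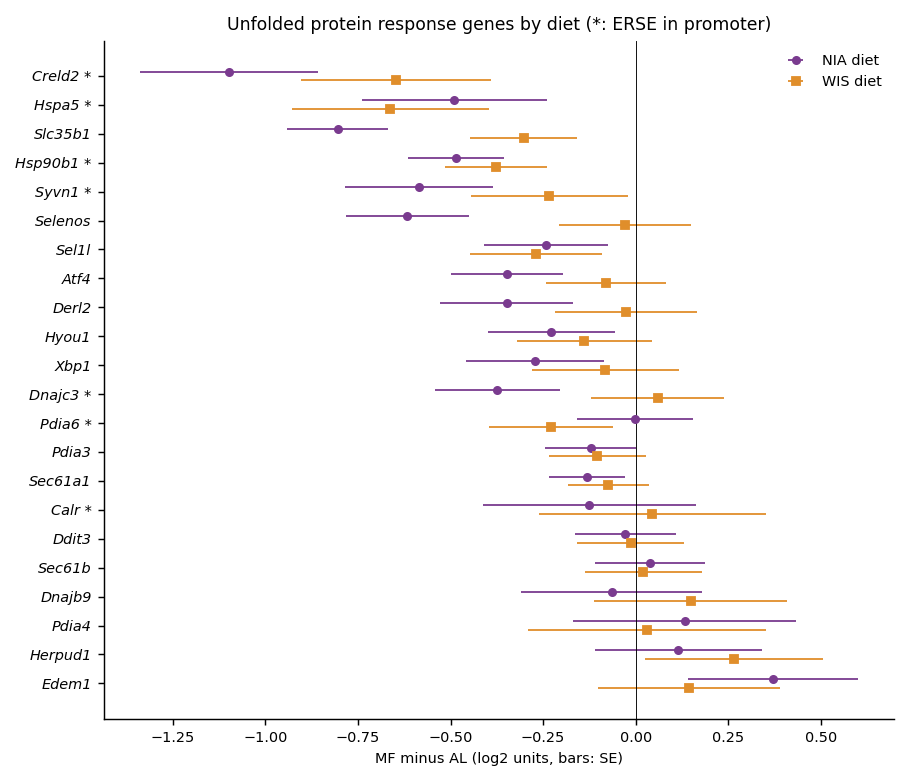
MF minus AL of 22 unfolded protein response genes on the NIA diet (circles) and the WIS diet (squares), in log2 units with SE, ordered by the pooled difference; asterisks mark genes with the ERSE in the promoter. Creld2, Hspa5 and Hsp90b1 lie left of 0 on both diets, by 0.38 to 1.10.

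Hsph1, the HSP110 nucleotide exchange factor of cytosolic HSP70, fell by 0.64 (adjusted p = 0.0355). Its levels ran from 1.72 to 2.61 in MF livers with a median of 2.17, against 2.08 to 3.61 with a median of 2.78 in AL livers. The call was lost on removal of 10 single libraries. It was the 1 gene that passed among 22 measured heat shock and chaperone genes, of which 19 lay below 0 and whose median was -0.13, or -0.44 under median scaling. Cct3, a subunit of the chaperonin that folds actin and tubulin, gave -0.33 (adjusted p = 0.0963) and -0.07 by a second probe, and Ahsa1, an HSP90 cochaperone, gave -0.31 (adjusted p = 0.0941). None of 28 proteasome subunits passed, and their median was -0.07, or -0.45 under median scaling.

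Several falls concerned ribosomes and protein targeting. Falls were concentrated among the brightest genes. Among the 1990 genes with the highest AL levels, 25 fell and 3 rose. Among the 1991 with the lowest AL levels, 2 fell and 17 rose. The part of brightness in the falls of ribosomal and protein-targeting genes was not tested. Rps9, a protein of the small ribosomal subunit, had MF-NIA levels of 5.15 to 5.77 and AL-NIA levels of 5.84 to 6.18. In MF-WIS livers it stood at 5.48, 5.45, 5.71 and 5.84, against 5.80 to 6.48 in AL-WIS livers. It fell by 0.52 (adjusted p = 0.0174), and 9 of 10 MF libraries lay below every AL library. A second probe gave -0.37 without passing.

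Rps3a1, of the same subunit, fell by 0.54 (adjusted p = 0.0281), a call lost on removal of 5 single libraries. Emg1, which methylates the RNA of the small subunit, fell by 0.51 (adjusted p = 0.0203). For Emg1 the MF levels of 2.07 to 3.08 lay wholly below the AL levels of 3.14 to 3.49, although its other probe gave -0.10 (adjusted p = 0.682). Naca, which binds nascent chains at the ribosome, fell by 0.48 (adjusted p = 0.0174) by its brightest probe. Its 2 other probes went the other way, with 0.35 (adjusted p = 0.0479 over all probes) and 0.23 (adjusted p = 0.16), so the direction differed between probes.

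A list of 55 cytosolic ribosomal protein genes, chosen after the values were seen, held 3 falls (Rps9, Rps3a1 and Rps21) and no rise. Of the 55, 51 lay below 0 and the median was -0.22, or -0.14 after quantile normalization and -0.78 under median scaling. Pseudogene copies of ribosomal protein genes can share their probes. In a second such list, of 28 genes of signal peptide cleavage, translocation and oligosaccharide transfer, Ddost, Spcs2 and Ssr2 fell and the median was -0.11, or -0.52 under median scaling.

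Of the other large falls, Tbl1x, part of the NCoR corepressor, fell by 0.56 (adjusted p = 0.0432), and Usp39, a splicing factor, fell by 0.49 (adjusted p = 0.0203). The call of Tbl1x was lost on removal of 13 single libraries and that of Usp39 on removal of 1. Usp39 levels ran from 1.03 to 1.84 in MF livers and from 1.51 to 2.29 in AL livers. One of its 3 other probes passed (-0.38) and the other 2 gave -0.11 and -0.14. Chp2, a calcineurin B homologous protein, differed by -0.58 (adjusted p = 0.0203). It was detected on 2 of 6 MF-NIA arrays, on 0 of 4 MF-WIS arrays and on 4 of 6 AL-WIS arrays, so that this value rests in part on background signal.

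**Figure D3:**
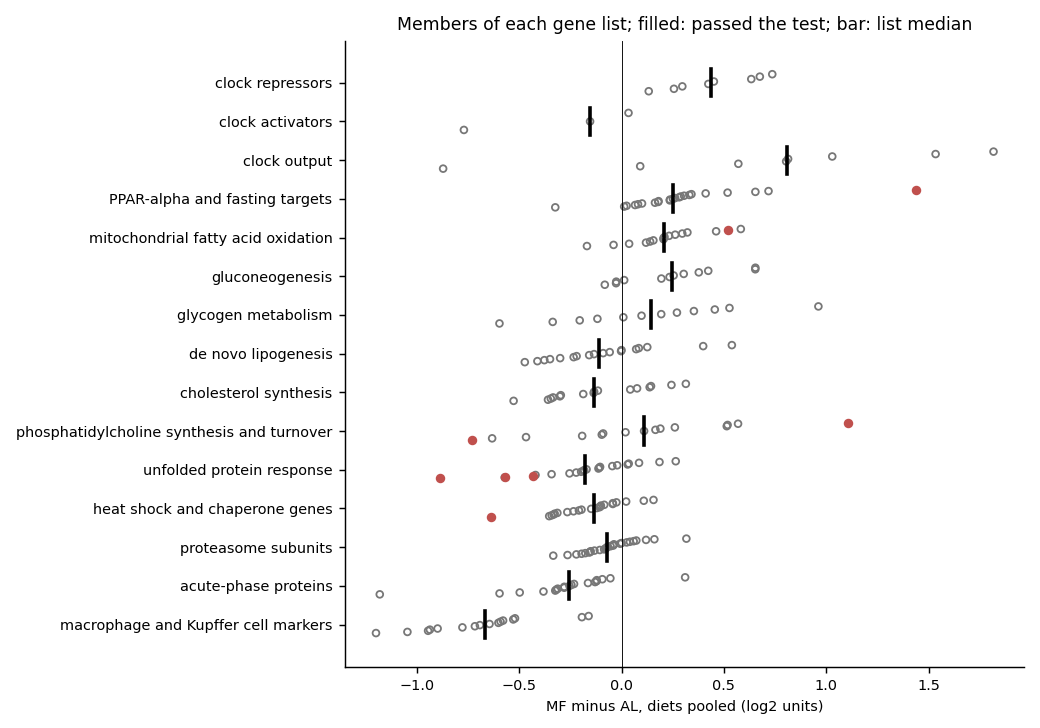
MF minus AL, diets pooled, of each measured member of 15 gene lists (log2 units); filled points passed limma's adjusted p of 0.05, open points did not, and the bar is the list median. The clock output genes reach from -0.87 to 1.82 with none passing, and the macrophage markers all lie below 0.

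No clock gene passed, although the widest difference among the 7958 genes was in one of them. Dbp, a clock-controlled transcription factor, differed by 1.82 (SE 0.67, adjusted p = 0.165). Its levels in MF-NIA livers ran from 3.76 to 5.72 with a median of 4.92, against 4.46, 3.94, 2.69, 0 and 0.15 in AL-NIA livers. In MF-WIS livers they were 2.54, 3.52, 4.77 and 3.96, against 0.14 to 5.38 with a median of 3.18 in AL-WIS livers. The MF values lay between 2.54 and 5.72, whereas the AL values spanned 0 to 5.38. The SD was 0.66 in MF-NIA and 0.93 in MF-WIS livers, against 2.08 in AL-NIA and 2.07 in AL-WIS livers.

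Rgs16, a feeding-responsive regulator of G-protein signalling, differed by 1.53 (adjusted p = 0.102). It ran from 2.40 to 5.33 in MF livers with a median of 4.31, against 0.04 to 4.42 with a median of 2.64 in AL livers. Upp2, a uridine phosphorylase, gave 1.03 (adjusted p = 0.26). Nfil3, a repressor that binds the same sites as Dbp, gave -0.87 (adjusted p = 0.119). It ran from 1.96 to 2.51 in MF-NIA livers, against 2.45 to 3.93 in AL-NIA livers, and from 0.51 to 2.94 in MF-WIS livers, against 1.71 to 3.73 in AL-WIS livers.

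Nr1d1, encoding the repressor REV-ERB-alpha, differed by 0.63 (adjusted p = 0.0694). Its levels in MF-NIA livers ran from 0.86 to 1.78, against 0.69, 0.79, 0.53, -0.18 and 0.26 in AL-NIA livers, with no overlap. In MF-WIS livers they were 0.66, 0.85, 1.39 and 1.21, against -0.33 to 1.15 in AL-WIS livers. All 8 measured clock repressors lay above 0, with a median of 0.44 (0.70 on NIA and 0.14 on WIS), among them Ciart at 0.74 (adjusted p = 0.247), Per1 at 0.68 (adjusted p = 0.264) and Per3 at 0.30 (adjusted p = 0.303). Per3 was detected on 1 of 4 MF-WIS and 3 of 6 AL-WIS arrays, and Ciart on 2 of 4 and 6 of 6. The WIS values of Per3 and Ciart thus rest in part on background signal. Arntl, the activator, gave -0.77 (adjusted p = 0.166), whereas Rora gave -0.15 and Clock 0.03. None of the 19 clock genes passed, and the medians of the 3 clock lists kept their sign under each scaling tried, that of the repressors at 0.19 under median scaling.

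**Figure D4:**
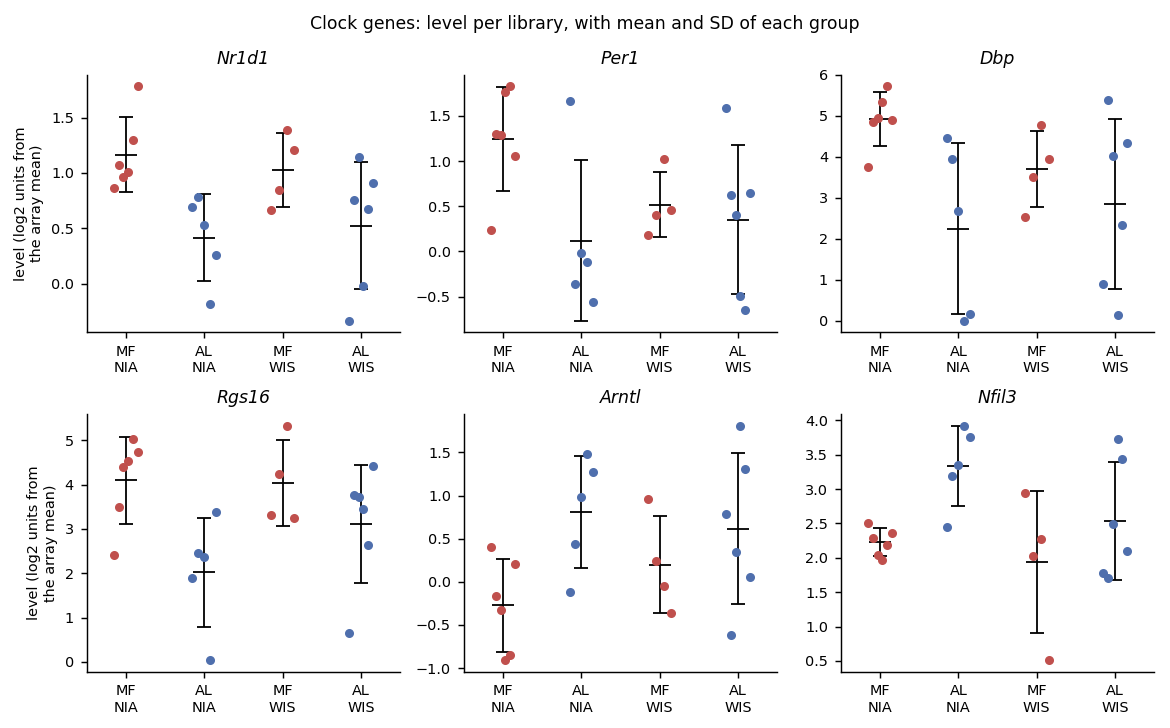
Level per library of 6 clock genes (log2 units from the array mean, each point 1 library, MF red and AL blue), with the mean and SD of each group. For Dbp the MF points spread from 2.54 to 5.72 and the AL points from 0 to 5.38.

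Fasting genes lay slightly above their AL levels. Of 23 measured PPAR-alpha and fasting targets, 22 lay above 0, beside 54.5% of all genes, and Angptl4 was the 1 that passed. The list median was 0.25 (0.35 on NIA and 0.19 on WIS), or 0.18 without AL-WIS replicate 1. For 16 of the 23 the sign was the same on both diets, beside 57.4% of all genes. Creb3l3, a fasting-induced hepatic transcription factor, gave 0.65 (adjusted p = 0.123), Ppara itself 0.30 (adjusted p = 0.217), and Acot2, a mitochondrial thioesterase, 0.18 (adjusted p = 0.155). Under median scaling the list median was -0.02, which is 0.11 relative to the all-gene median of that scaling.

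In mitochondrial fatty acid oxidation, Slc22a5, the carnitine carrier, rose by 0.52 (adjusted p = 0.0203). Its MF levels ran from 1.34 to 2.02, against 0.81 to 1.66 in AL livers, and its other probes gave 0.55 and 0.25, the second of these without passing (adjusted p = 0.0871). The other 15 of 16 genes did not pass. Acadl, the long-chain acyl-CoA dehydrogenase, gave 0.58 (adjusted p = 0.0745, or 0.046 without AL-WIS replicate 1), but 0.06 and 0.35 by its other probes, neither of which passed. Decr1, needed for unsaturated fatty acids, gave 0.46 (adjusted p = 0.287), and Acads, the short-chain enzyme, 0.20 (adjusted p = 0.392). The list median was 0.21, but 0.12 without AL-WIS replicate 1 and -0.28 under median scaling (-0.15 relative to the all-gene median).

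None of 12 gluconeogenesis genes passed, with a median of 0.24, or 0.16 without AL-WIS replicate 1. Pck1, the phosphoenolpyruvate carboxykinase, gave 0.65 (adjusted p = 0.18), Foxo1, its transcriptional activator, 0.42 (adjusted p = 0.0643), and Pcx, pyruvate carboxylase, 0.38 (adjusted p = 0.132). None of 12 glycogen genes passed either, with a median of 0.15. Gys2, the liver glycogen synthase, gave 0.96 (adjusted p = 0.0643), with MF levels of 0.60 to 2.66 and AL levels of -0.45 to 1.95. The lowest value of each regimen came from a library that stood apart, MF-WIS replicate 4 and AL-WIS replicate 1, and without AL-WIS replicate 1 Gys2 passed (adjusted p = 0.0452). Ugp2, which makes UDP-glucose, gave 0.53 (adjusted p = 0.0802), and the phosphorylase kinase subunits Phkb and Phka2 gave 0.35 and 0.19. MF-WIS replicate 4 stood above the other MF-WIS libraries for Ugp2 (4.27, against 2.93 to 3.28) and Phkb (0.83, against -0.23 to -0.17). Both list medians were -0.06 under median scaling, which is 0.07 relative to the all-gene median of that scaling.

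No gene of de novo lipogenesis (18 measured, median -0.11) or cholesterol synthesis (16 measured, median -0.14) passed. Acly, which makes cytosolic acetyl-CoA, gave -0.38 (adjusted p = 0.336), Mlxipl, the carbohydrate-responsive factor ChREBP, -0.30 (adjusted p = 0.279), and Acsl3, an acyl-CoA synthetase, -0.47 (adjusted p = 0.202). Fads2, a fatty acid desaturase, gave 0.54 (adjusted p = 0.361), with the lowest AL-WIS level in replicate 1. The lipogenesis median was -0.38 on NIA and 0.18 on WIS. Without AL-WIS replicate 1 the pooled medians were -0.24 for lipogenesis and -0.29 for cholesterol synthesis. Under median scaling they were -0.66 and -0.52 in that order, and the lipogenesis median was -0.01 after quantile normalization. In cholesterol synthesis Mvd gave -0.53, Hmgcs1 -0.30, Dhcr7 0.31 and Srebf2 0.14.

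All 16 measured macrophage and Kupffer cell markers lay below 0 and none passed. Their median was -0.67, with -0.19 on NIA and -1.23 on WIS. Without AL-WIS replicate 1 it was -0.39, and 1 marker passed. Vsig4, a Kupffer cell receptor, gave -1.20 (adjusted p = 0.182). It read 2.17, 3.37, 2.54 and 0.44 in MF-WIS livers, against 7.26 in AL-WIS replicate 1 and 2.94 to 4.29 in the other AL-WIS livers. The lysozyme genes Lyz2 and Lyz1, whose probes can read both, gave -1.05 and -0.94, and Adgre1, a surface receptor of macrophages, gave -0.90, with -0.70 and -0.26 by its other probes. Of 19 acute-phase proteins 18 lay below 0, with a median of -0.25 (-0.10 after quantile normalization and -0.77 under median scaling) and none passing. Itih3 gave -0.60 (adjusted p = 0.0894) and Fgg, a fibrinogen chain, -0.38 (adjusted p = 0.269). The part of these markers in the other results was not tested.

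The remaining lists held no further call: ketone body synthesis, insulin response, bile acids, amino acid response, urea cycle, glucocorticoid, growth hormone, CAR and PXR, NRF2, oxidative phosphorylation, heme, apolipoproteins and interferon, and the markers of the other cell types. In the list of temperature-responsive genes the 1 fall was again Hsph1. Over all pathway lists 8 of 441 genes passed, 3 upward and 5 downward, beside 127 (1.60%) of all 7958 genes. The count was not tested against that share.

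On the NIA diet alone 53 genes (0.666%) passed limma's adjusted p of 0.05, 29 (0.364%) higher and 24 (0.302%) lower in MF livers, and 1192 had an unadjusted p under 0.05. The split was 8 higher and 17 lower after quantile normalization, 27 and 1994 after median scaling, and 7 and 11 on ranks. Without AL-NIA replicate 5 no gene passed on NIA, and without AL-WIS replicate 1, which enters that fit only through the shared spread, 279 did. On the WIS diet alone, with 4 MF against 6 AL libraries, 0 genes passed and 800 had an unadjusted p under 0.05. The difference between the diets, an interaction term, passed for 0 genes, with 511 at an unadjusted p under 0.05. The larger number of calls on NIA is thus not shown to be a difference between the diets. Of the 53 genes called on NIA, 33 were among the 127 pooled calls.

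The 2 within-diet differences share no library. Across 7958 genes, which are not independent replicates, they correlated at r = 0.24 (jackknife SE over libraries 0.16) and had the same sign in 57.4%. Of the 53 genes called on NIA, 44 had the same sign on WIS. Their median size was 0.56 on NIA, against 0.21 on WIS in the NIA direction. Of the 1192 genes with an unadjusted p under 0.05 on NIA, 71.6% had the same sign on WIS, and of the 800 on WIS 73.5% had the same sign on NIA. An unadjusted p under 0.05 on both diets was reached by 174 genes, 164 with the same sign and 10 with opposite signs. Without AL-WIS replicate 1 and MF-WIS replicate 4 the correlation was 0.36 and the share of the same sign 61.7%.

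**Figure D5:**
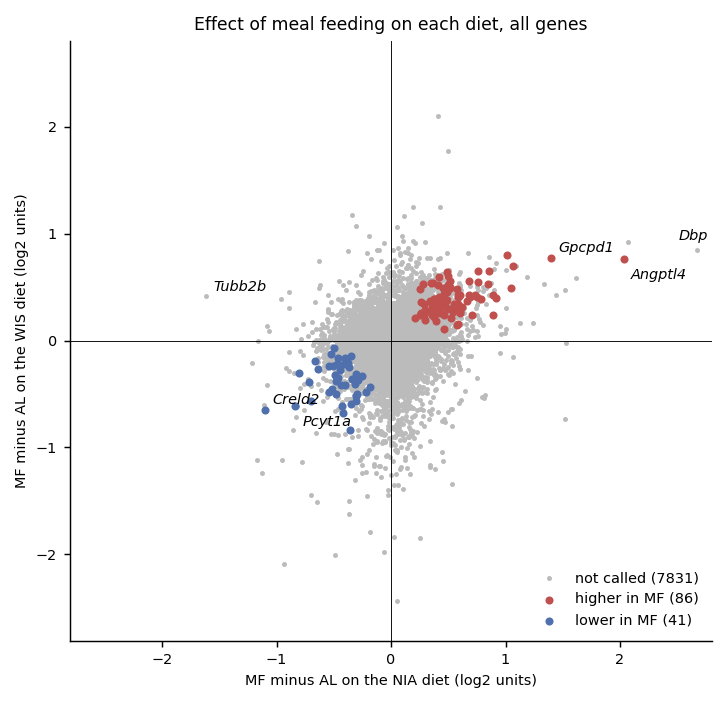
MF minus AL on the NIA diet against MF minus AL on the WIS diet for 7958 genes (log2 units); red and blue points are the 86 and 41 genes called higher and lower in the pooled comparison. The called genes lie where both signs match, which the pooled call in part requires, while Tubb2b lies at -1.62 on NIA and 0.42 on WIS.

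All 127 pooled calls had the same sign on both diets, a direction that the pooled call in part fixes. The 86 rises had a median of 0.49 on NIA and 0.37 on WIS, and the 41 falls -0.44 and -0.36. The difference was larger on NIA for 68 of the 86 and 25 of the 41. On WIS alone, 68 of the rises and 28 of the falls had an unadjusted p under 0.05. An unadjusted interaction p under 0.05 was seen for 7 rises and 6 falls.

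The 10 genes with the smallest interaction p all had an adjusted p of 0.723. Tubb2b, a beta-tubulin, had the widest gap. Its levels in MF-NIA livers ran from 0.71 to 3.04 with a median of 1.61, against 2.37, 3.43, 3.06, 3.73 and 4.14 in AL-NIA livers. In MF-WIS livers they were 3.38, 3.50, 2.28 and 3.49, against 1.98 to 3.44 with a median of 2.76 in AL-WIS livers. The difference was -1.62 on NIA (adjusted p = 0.0463) and 0.42 on WIS (adjusted p = 0.679), a gap of 2.03 with a 95% interval of 0.94 to 3.12. A second probe of Tubb2b gave -0.17 on NIA and 0.03 on WIS.

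Tkt, the transketolase of the pentose phosphate pathway, gave -0.52 on NIA and 0.36 on WIS, a gap of 0.89. Mars1, the methionyl-tRNA synthetase, gave -0.60 and 0.16, and Preb, an ER exchange factor for COPII vesicles, -0.56 and 0.12. Gpn2, a GTPase, gave -0.34 and 0.09, and Rps19bp1, a ribosomal protein binding partner, -0.29 and 0.20. Sema4b, a semaphorin, gave 0.56 and -0.41. Il18, the interleukin, gave 0.53 and -0.21, Gng5, a G-protein gamma subunit, 0.23 and -0.65, and Nuak2, an AMPK-related kinase, 0.21 and -0.54.

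Caloric restriction used the same single portion a day and is the regimen most like meal feeding. CR livers differed from MF livers in 2227 of 7958 genes (28.0%). Without CR-NIA replicate 1, whose scores matched no intensity column of its group, 2591 genes differed. The values below include that library. The 2 comparisons share the MF livers, so their values for the named genes are only set side by side. Angptl4 differed by -0.03 between CR and MF livers (adjusted p = 0.952), Lgals4 by -0.05, Fbxo21 by 0.10 and Gabarapl1 by 0.07, none of which passed. Gpcpd1 was at 0.50 (adjusted p = 0.278) and Creld2 at -0.41 (adjusted p = 0.144).

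Other genes that rose in MF livers were lower in CR than in MF livers. Nudt12 stood at -0.90 (adjusted p = 0.000105), Ppp1cb at -0.92, Yme1l1 at -0.84, Adss at -0.85 and Heca at -0.65. Pcyt1a, at 0.65 (adjusted p = 0.000354), Rps9 and Rps3a1, both at 0.56, and the brightest probe of Naca, at 0.49, were higher in CR than in MF livers. The mRNA deadenylation gene Tob1 gave -0.26 (adjusted p = 0.101) and its partner Cnot7 -0.38 (adjusted p = 0.000769).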

How the data were processed

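Liver RNA was measured on Illumina mouse BeadChips, 1 array per library. The values used are the deposited scores, which by their mean of 0 and SD of 1 are z-scores within an array; how the authors made them is not given in the sources used here. A second table gives linear intensities with a detection p-value each, deposited from GenomeStudio 2011.1 (submitters' processing notes). Its header names groups but no samples, so its columns could not be tied to libraries by name, and the planned neqc over all 21 libraries was not run. By value, the scores of 34 of the 40 libraries matched z-scores of the log2 signals in a column of their group within 0.01. The AL-NIA columns were not compared in this way. For the fits, the scores were multiplied by 1.51, the median SD of the log2 signals. The 6 AL-NIA intensity columns, 1 more than the samples, were not used. CR-NIA had 8 columns for 9 samples, and the scores of CR-NIA replicate 1 matched none of them. Whether that library is labelled rightly was not tested.

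Probes detected at p under 0.01 on at least 4 of 34 arrays were kept, and each of 7958 genes, named from the platform annotation, was read from its brightest probe. Detected probes per array numbered 9132 to 10349 in MF-NIA, 9238 to 10310 in MF-WIS and 9447 to 11199 in AL-WIS, and precision is bounded by how many arrays there are. limma 3.58.1 (R 4.3.3) was fitted to 21 arrays with regimen and diet, to 4 group means within diets, and to 29 arrays for CR against MF. All adjusted p are limma's, after Benjamini-Hochberg. The code was tested on simulated data. Genes were named by a rule: the 10 largest rises and falls, the 10 smallest interaction p, and up to 4 members of each described list by p. Genes outside it were chosen after their values were seen. Members and lists were chosen with earlier results of these data known. Nothing says that mice of a group were caged apart, and p-values measure the spread between these samples. Alternatives covered scaling, filters, moderation, weights, the arrays fitted and single omissions.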

Additional observations from a re-analysis of the deposited data

Results flagged for a closer look

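Single libraries lay far from the others of their group for 24 of 328 combinations of a named gene or marker list with a group of 4 to 6 libraries; the size given is the gap to the nearest library over the group's range, and chance gives about 1 in 20. MF-NIA replicate 1 stood lowest for Emg1 (0.683). MF-NIA replicate 4 stood highest for Lyz2 (0.652) and neutrophil markers (0.813). MF-NIA replicate 4 stood lowest for Creb3l3 (0.655). MF-NIA replicate 6 stood highest for Heca (0.665). MF-WIS replicate 3 stood lowest for Gng5 (1) and Tubb2b (0.901). MF-WIS replicate 4 stood highest for Tbl1x (0.924), Phkb (0.943) and Pla2g12a (0.876). MF-WIS replicate 4 stood lowest for Ahsa1 (0.917). AL-NIA replicate 1 stood highest for Per1 (0.755). AL-NIA replicate 1 stood lowest for Mlxipl (0.718). AL-NIA replicate 4 stood highest for stellate cell and fibroblast markers (0.722). AL-WIS replicate 1 stood highest for Psmd8 (0.821), Lyz2 (0.67), Vsig4 (0.689) and macrophage and Kupffer cell markers (0.67). AL-WIS replicate 1 stood lowest for Acads (0.812), Pck1 (0.742), Fads2 (0.748) and Psmc2 (0.689). AL-WIS replicate 4 stood highest for Ppp1cb (0.713). AL-WIS replicate 5 stood highest for Tbl1x (0.783). In AL-WIS replicate 1 the Lyz2 level was 6.92, against 4.56 in the next library of the group. In MF-WIS replicate 4 Tbl1x was at 2.16, against 1.25. In AL-NIA replicate 1 Per1 was at 1.66, against -0.01. The neutrophil markers averaged 1.62 in MF-NIA replicate 4, against -0.29 in the next library.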

How the results depend on the processing

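The pooled count of 127 became 65 after quantile normalization, 392 after median scaling (which moved the median of all genes to -0.13), 21 on ranks, 977 with array weights, 296 with all 40 arrays in the fit and 555 without AL-WIS replicate 1 and MF-WIS replicate 4. The NIA count of 53 became 25, 2021, 18, 847, 161 and 473 under the same settings, and 19 with trended and robust moderation. The WIS count of 0 became 1 on ranks, 8 with array weights and 3 with all 40 arrays. The 8 genes called in pathway lists became 13, 3, 57, 19 and 31 after median scaling, on ranks, with array weights, with all 40 arrays and without the 2 libraries. The 2227 genes of CR against MF became 3942 after median scaling, and the correlation between diets became 0.423 with array weights. Leaving out 1 library at a time gave 12 to 310 pooled calls, 0 to 279 on NIA, 0 to 1 on WIS, 1 to 18 in lists and 0 for the interaction, with a correlation between diets of 0.191 to 0.331. The lowest pooled count was without AL-NIA replicate 5, and the highest without MF-WIS replicate 4 (310), AL-WIS replicate 1 (271) and AL-WIS replicate 4 (220). The interaction stayed at 0 under all settings tried. With the replicate number as a block, 32 genes passed pooled, 6 on NIA, 1104 for CR against MF and 3 in lists. Same-numbered libraries correlated at -0.45 to 0.31 over 9 pairs, 4 of them over 0.1. Differently numbered pairs were not compared, so these values cannot decide whether the numbers pair the libraries. All 127 called genes kept their sign, and 56 were still called after quantile normalization, 68 after median scaling, 119 with all 40 arrays and 30 with the block. The cause of these changes was not tested. After neqc of the WIS signals, differences were steeper (slope 1.42) and correlated at 0.961 with the scores. Without CR-NIA replicate 1, which matched no signal column of its group and was left out after seeing the data, CR against MF gave 2591 genes.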
